A study of Mus musculus with 6 samples.

Results

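The heterotrimeric G protein subunits and the RGS proteins (regulators of G protein signalling) were followed in cerebellar nuclei of mice trained for eyeblink conditioning. Members were all probe sets with 1 gene symbol in the platform annotation that names a G protein alpha subunit, a beta subunit (Gnb and 1 digit), a gamma subunit (Gng and digits) or an RGS protein (Rgs and digits). This gave 103 of 36701 probe sets, for 45 genes: 15 alpha, 5 beta and 9 gamma subunit genes and 16 RGS genes. Gnb1l and the antisense gene Gnasas1 are no subunits and were left out, and so was a probe set shared by Gng5 and its pseudogene. The cone gamma subunit gene Gngt2, whose name the rule does not take, was left out too, and its probe set lay at signal percentile 17.4 of its array design.

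A heterotrimeric G protein couples a receptor in the membrane to enzymes and channels in the cell. An activated receptor makes the alpha subunit exchange GDP for GTP, and the alpha subunit and the beta-gamma pair then act on their effectors: Gs raises cyclic AMP, Gi lowers it, Gq activates phospholipase C beta, and beta-gamma opens GIRK potassium channels. RGS proteins speed up GTP hydrolysis by the alpha subunit and so shorten the signal. In cerebellar neurons these proteins serve metabotropic glutamate, GABA-B, cannabinoid and monoamine receptors.

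The paired pool came from male C57BL/6 mice, 11 to 18 weeks old, that had 7 days of training in which a tone of 352 ms was joined after 252 ms by a shock of 100 ms near the left eye. The unpaired pool came from mice of the same strain, sex and age range that had the same tone and shock for 7 days, but apart and in pseudorandom order. All mice of both pools had wires implanted in the left eyelid and a headstage. Tissue centred on the anterior interpositus nucleus was taken with syringe needles, and 10 to 15 nuclei from the side of the implanted eye were pooled for each group. Training began after 3 days of recovery from surgery, and tissue was taken within 10 to 30 minutes of death, after the last trial. Each training group was measured on 3 array designs, A, B and C, with 1 array per group and design, so there were 6 arrays and no replicate. It is not stated that 1 RNA preparation served all 3 designs; "pool" below stands for the material of a training group on a design. The spread between mice is therefore unknown, no p-value could be given, and differences are described by size. The signal of a pool also cannot tell fewer cells of a type from less RNA per cell.

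Markers of the labelled tissue were bright. The 10 marker genes of deep nuclear projection neurons on the arrays reached a median signal percentile of 97.9, counting each gene's highest probe set. The 16 oligodendrocyte markers reached 96.6 and the 18 astrocyte markers 99.1, so glia were well represented. Granule cell markers (15 genes, 74.4) and Purkinje cell markers (16 genes, 64.6) from the overlying cortex gave signal too. Within a design the arrays were alike, with Pearson correlations over its probe sets of 0.995 (A), 0.991 (B) and 0.994 (C).

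Signal rank was described as the percentile of a probe set's mean signal among all probe sets of its design, since designs were not comparable with each other. The median log2 signal was 4.82 for design A, 4.32 for B and 3.02 for C, so the same percentile stands for a weaker signal on C. Probe sets also differ in how well they bind, and a rank is no amount of transcript. At or above the design's median lay 65 of the 103 member probe sets, here called kept, for 38 of the 45 genes. Of all probe sets 18351 of 36701 were kept, as the median sets, and 10579 of all 15964 genes had a kept probe set. All 9 gamma subunit genes among the members had a kept probe set, as did 12 of 15 alpha, 4 of 5 beta and 13 of 16 RGS genes. A gene's highest percentile had a median of 87.4 for alpha, 69.2 for beta, 80.7 for gamma and 68.1 for RGS genes.

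**Figure D1:**
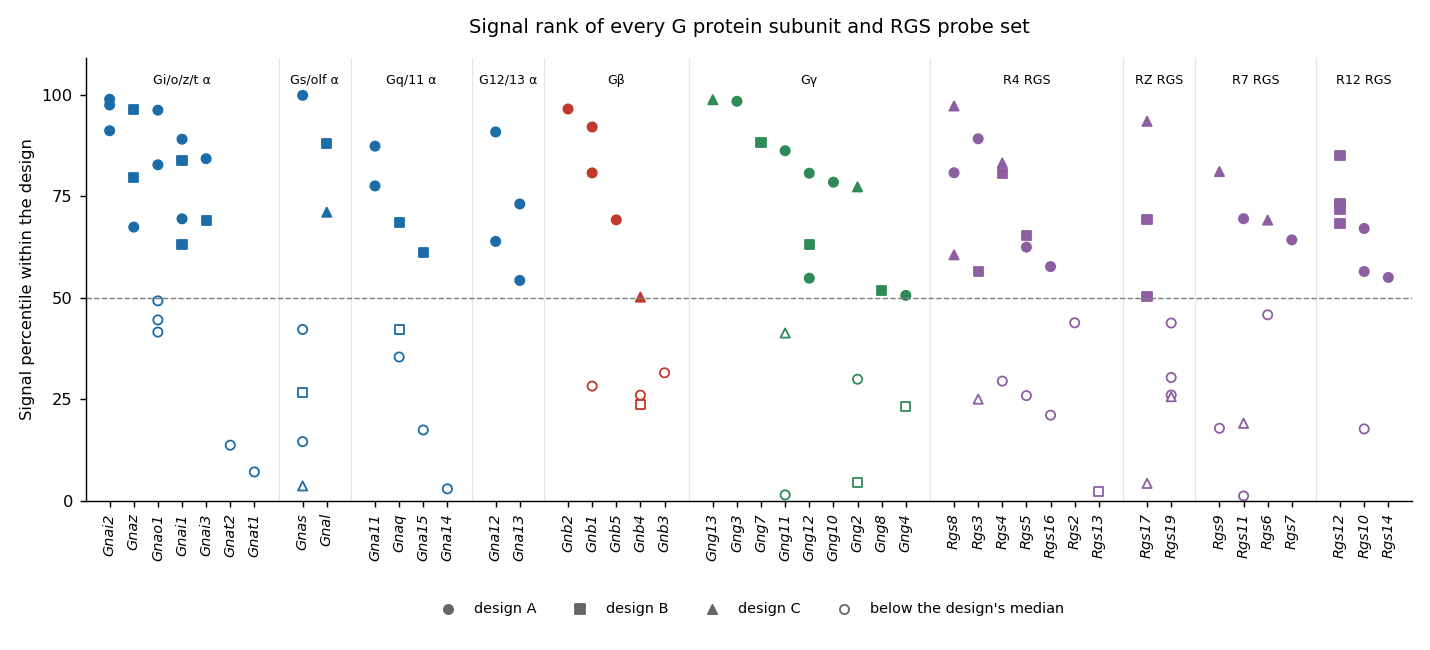
Signal percentile within the design (y axis, 50 is the median of all probe sets of that design) of each of the 103 member probe sets, by gene and subfamily. Circles, squares and triangles are designs A, B and C, and open symbols lie below the median. Gnas reached 99.9, and Gnat1, Gnat2, Gna14, Gnb3, Rgs2, Rgs13 and Rgs19 had open symbols only.

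Among the alpha subunits, the brightest probe set belonged to Gnas, the stimulatory subunit that drives adenylyl cyclase, at percentile 99.9 of design A. It gave a log2 signal of 11.70 in the paired and 11.61 in the unpaired pool. This probe set, 93271_s_at, has a suffix of the kind that marks less specific probes. The other 4 Gnas probe sets lay between percentiles 3.61 and 42.2, and the Gnas locus makes several transcripts from separate promoters, which were not told apart here. Gnai2, an inhibitory subunit found in most cells, had 3 probe sets between percentiles 91.2 and 98.9, and Gnao1, the most abundant alpha subunit of brain, had 5 between 41.5 and 96.2. Gnaz, an inhibitory subunit that resists pertussis toxin, reached 96.5.

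Alpha subunits known from other tissues lay at the bottom. Gnat1, the transducin of rods, had 2.45 in the paired and 2.46 in the unpaired pool, at percentile 7.06. Gnat2, the transducin of cones, had 2.72 in both pools, at 13.7. Gna14, a Gq relative, lay at 2.89. Gna15, the Gq relative of blood cells, lay at 17.4 on design A but at 61.2 on design B. Gnb3, the beta subunit of cones and retinal bipolar cells, lay at 31.5.

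Several of these dim genes sit directly beside a brighter relative. In the RefSeq gene table, Gnat2 and Gnai3, Gna15 and Gna11, and Gnaq and Gna14 are adjacent protein-coding genes, and Gnai2 and Gnat1 have 1 coding gene between them. The highest percentiles were 13.7 for Gnat2 and 84.3 for Gnai3, 61.2 for Gna15 and 87.4 for Gna11, 2.89 for Gna14 and 68.5 for Gnaq, and 7.06 for Gnat1 and 98.9 for Gnai2. The RGS genes Rgs8 and Rgs16 (97.3 and 57.7), Rgs4 and Rgs5 (83.2 and 65.3) and Rgs13 and Rgs2 (2.25 and 43.8) are adjacent as well, and so are Rgs9 and Gna13 (81.1 and 73.1). In several of these pairs the percentiles come from different designs.

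The promoters of 2 such pairs are shown, because each pair joins a bright and a dimmer gene of the same kind at the same place, and that of Gnb1 because its probe set gave the largest difference. The sequences are from RefSeq (build GRCm38.p6), cover 250 bases before to 50 after the annotated start, and are written 5′ to 3′ along the gene. Capitals mark CG dinucleotides. Gnat2 (chr3:108092816-108093115, plus strand) has 8 of them and Gnai3 (chr3:108146103-108146402, minus strand) has 21. Gna15 (chr10:81524176-81524475, minus strand) has 6 and Gna11 (chr10:81545113-81545412, minus strand) has 48. Gnb1 (chr4:155491111-155491410, plus strand) has 31.
Gnat2: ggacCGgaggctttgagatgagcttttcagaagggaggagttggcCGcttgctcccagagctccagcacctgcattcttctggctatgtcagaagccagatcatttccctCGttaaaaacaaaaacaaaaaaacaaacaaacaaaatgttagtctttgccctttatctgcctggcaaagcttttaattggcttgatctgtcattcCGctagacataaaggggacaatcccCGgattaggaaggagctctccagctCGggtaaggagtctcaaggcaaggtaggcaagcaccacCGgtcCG
Gnai3: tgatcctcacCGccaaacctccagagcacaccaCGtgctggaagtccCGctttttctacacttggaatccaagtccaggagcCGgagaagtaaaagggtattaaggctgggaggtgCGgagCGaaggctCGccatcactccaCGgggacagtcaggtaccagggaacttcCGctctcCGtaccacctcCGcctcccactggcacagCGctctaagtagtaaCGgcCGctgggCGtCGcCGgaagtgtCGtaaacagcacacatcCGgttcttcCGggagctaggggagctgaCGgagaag
Gna15: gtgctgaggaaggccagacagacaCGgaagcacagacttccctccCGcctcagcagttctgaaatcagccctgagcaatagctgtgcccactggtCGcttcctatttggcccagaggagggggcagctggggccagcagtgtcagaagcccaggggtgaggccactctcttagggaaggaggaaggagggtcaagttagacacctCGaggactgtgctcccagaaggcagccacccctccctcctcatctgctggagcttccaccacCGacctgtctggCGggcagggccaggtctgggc
Gna11: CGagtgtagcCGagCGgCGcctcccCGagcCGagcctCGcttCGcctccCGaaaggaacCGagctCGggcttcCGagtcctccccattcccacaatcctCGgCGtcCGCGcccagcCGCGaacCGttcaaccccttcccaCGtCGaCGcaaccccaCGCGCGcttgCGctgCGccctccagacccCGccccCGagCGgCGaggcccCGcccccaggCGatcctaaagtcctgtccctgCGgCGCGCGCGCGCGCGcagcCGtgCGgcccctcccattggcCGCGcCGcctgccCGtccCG
Gnb1: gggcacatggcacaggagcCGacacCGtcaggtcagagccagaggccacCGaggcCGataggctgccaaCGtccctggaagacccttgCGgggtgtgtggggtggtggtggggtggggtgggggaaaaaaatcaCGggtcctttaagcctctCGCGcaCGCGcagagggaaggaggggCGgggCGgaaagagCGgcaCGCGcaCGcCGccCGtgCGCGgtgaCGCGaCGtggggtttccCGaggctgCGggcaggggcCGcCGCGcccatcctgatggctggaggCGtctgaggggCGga

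In these 2 pairs the gene with the brighter probe sets has the promoter with more CG dinucleotides, but Rgs8 and its neighbour Rgs16 run the other way. Rgs8, at percentile 80.8 of design A on a probe set with a suffix, has 12 of them. Rgs16, at 57.7 of the same design, has 22. Rgs9 has 19 and its neighbour Gna13 has 40, and their order in signal depends on the design. Rgs9 lay at 81.1 on C but at 17.8 on A, where Gna13 lay at 73.1. Promoters were listed for 36 of the 45 member genes, 49 in all. Taking the richest promoter of each gene, the 31 genes with a kept probe set had a median of 23 CG dinucleotides (range 2 to 53), and the 5 without one had 8 (range 0 to 37). The median over all 32851 listed promoters, of 27025 genes, was 7. This counts every promoter and not the richest of each gene, so the members' medians are not on the same measure. The GC box GGGCGG, searched on both strands, occurs in 26 of the 49 member promoters (53.1%) and in 35.7% of all listed promoters. Counting overlapping matches, Gnb1 has 4 and Gna11 has 2, while Gnai3, Gnat2 and Gna15 have none. The letters TATAAA, searched on both strands, occur in 8 of the 49 (16.3%) and in 13.6% of all, and the cyclic AMP response element TGACGTCA, which is its own reverse complement, in 0 of the 49 and in 1.79% of all. These are matches of letters and not sites.

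The question of the comparison was which transcripts differed between nuclei of mice with paired and with unpaired training. One member probe set of 65 kept ones differed by 1.5-fold or more, Gnb1 on design A, which was lower in the paired pool. That is 1.54% of the members, a share that rests on this 1 probe set, against 0.681% of all 18351 kept probe sets (0.349% higher and 0.332% lower). By design the share of all kept probe sets was 0.58% (A), 0.822% (B) and 0.64% (C). At 1.2-fold, 10 of 65 member probe sets were apart (15.4%), against 16.4% of all kept probe sets. Of these 10, 2 were higher and 8 lower in the paired pool, where 8.03% of all kept probe sets were higher and 8.33% lower by that much. By design the members' counts were 5 of 35 (A), 4 of 20 (B) and 1 of 10 (C), and the shares of all kept probe sets 15.3%, 18.2% and 15.5%. Log2 ratios (paired minus unpaired, after a shift of about 0.01 that sets each design's bright probe sets to 0) had an SD of 0.20 over the kept members and 0.19 over all kept probe sets. The median absolute log2 ratio was 0.11 for members and 0.12 for all. The spread of the members as a whole was thus close to that of all kept probe sets. Their SD includes the 1 Gnb1 probe set past 1.5-fold, which weighs on it. By family the SD was 0.17 for alpha, 0.42 for beta, 0.20 for gamma and 0.17 for RGS probe sets.

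**Figure D2:**
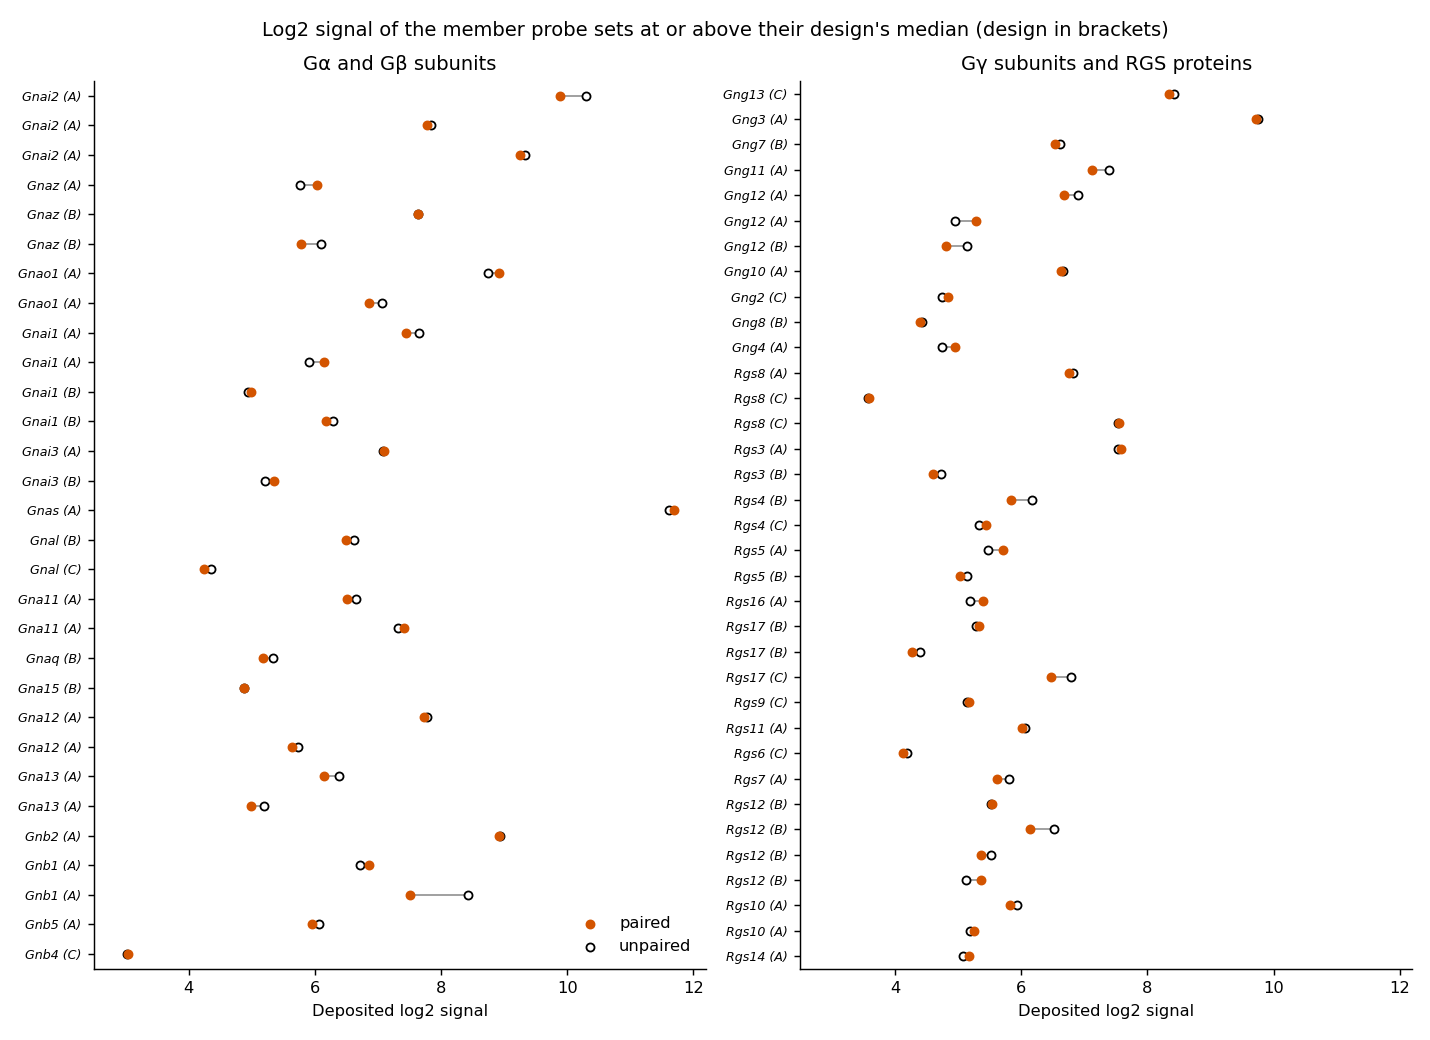
Deposited log2 signal (x axis) of the 65 kept member probe sets in the paired pool (filled) and the unpaired pool (open), 1 row per probe set with its design in brackets. The circles of most rows nearly touch, and the widest gap is that of a Gnb1 probe set, at 7.50 paired and 8.43 unpaired.

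Gnb1 encodes the beta subunit found in most G proteins of brain. Its probe set 97458_at gave a log2 signal of 7.50 in the paired and 8.43 in the unpaired pool, a log2 ratio of -0.91 or 1.88-fold. Including this one, 3 of the 6211 kept probe sets of design A had an absolute log2 ratio that large, and probe sets within 5 percentile points of its signal had an SD of 0.17. The other kept Gnb1 probe set, 94854_g_at on the same arrays, went the other way, with 6.86 in the paired and 6.72 in the unpaired pool (log2 ratio 0.16). A dim one, 94853_at, had 3.39 and 3.55. The probe sets of Gnb1 therefore do not give 1 answer for the gene, whose mean over kept probe sets was -0.38. It became 0.16 without 97458_at, and -0.91 with the brightest probe set alone or without suffixed probe sets, as the suffix of 94854_g_at also marks less specific probes.

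The other beta subunits were close to equal in the pools. Gnb2, the second common beta subunit, had 8.92 in the paired and 8.94 in the unpaired pool (log2 ratio -0.01). Gnb5, which pairs with R7 RGS proteins in place of a gamma subunit, had 5.96 and 6.06 (-0.10). Gnb4 was kept on design C alone, just above that design's median, with 3.03 in both pools. Its probe sets on designs A and B were dim, near the floor of the 25th percentile.

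**Figure D3:**
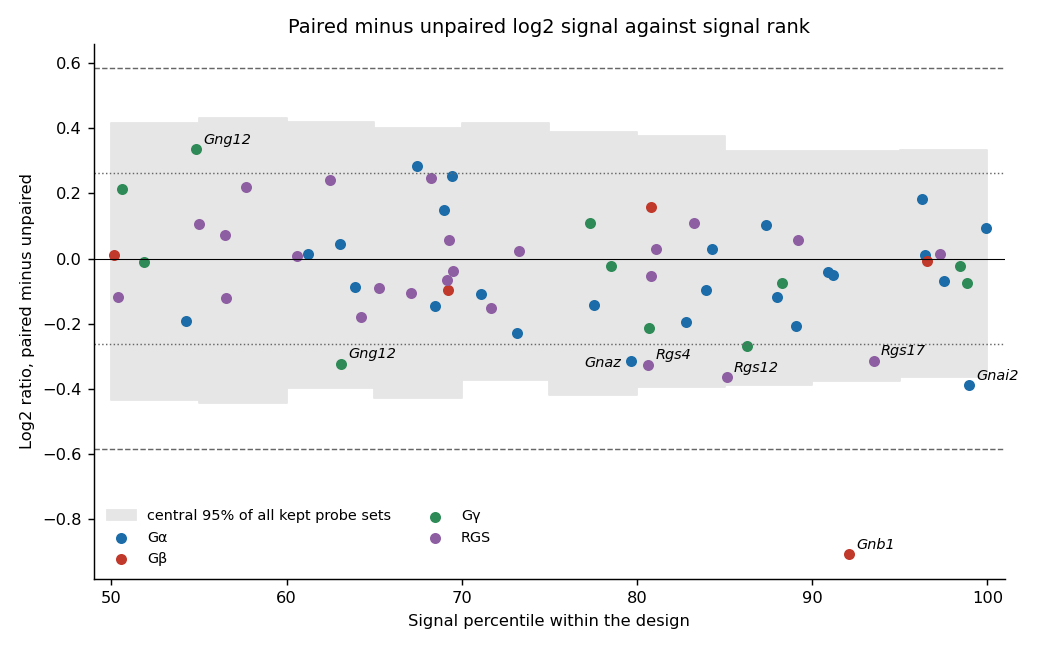
Log2 ratio, paired minus unpaired (y axis), against signal percentile (x axis) of the 65 kept member probe sets, coloured by family. The grey band holds the central 95% of all kept probe sets in steps of 5 percentile points, and dashed and dotted lines mark 1.5-fold and 1.2-fold. Gnb1 lies far below the band, and a Gnai2 probe set lies just under its lower edge.

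Among the Gi, Go and Gz subunits, the largest differences came from single probe sets. Gnai2 had 9.89 in the paired and 10.29 in the unpaired pool on 99596_f_at (log2 ratio -0.39), whose suffix marks less specific probes. Its other probe sets had 7.78 paired against 7.84 unpaired and 9.25 paired against 9.33 unpaired. All 3 were lower in the paired pool, but the ones other than 99596_f_at by 0.07 or less.

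Gnaz pointed both ways. It had 6.03 paired against 5.76 unpaired on design A (log2 ratio 0.29), and on design B 5.78 against 6.10 (-0.32) and 7.64 against 7.63 (0.01). Gnao1 did the same on design A, with 8.92 paired against 8.74 unpaired (0.18) and 6.85 against 7.06 (-0.20). Its 3 dim probe sets had 0.41, 0.13 and 0.06, and over all 5 the mean was 0.12. The 4 probe sets of Gnai1, an inhibitory subunit abundant in brain, ranged from -0.21 to 0.25, for a gene mean of -0.0010. Gnai3, the third inhibitory relative, was slightly higher on both, with 7.10 paired against 7.08 unpaired on A and 5.35 against 5.21 on B.

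Of the subunits that stimulate adenylyl cyclase, Gnas had the log2 ratio of 0.09 that its signals above give. Gnal, the olfactory type that replaces Gnas in striatal neurons, had 6.49 in the paired and 6.62 in the unpaired pool on design B and 4.24 and 4.36 on design C. Its log2 ratios of -0.12 and -0.11 were nearly the same on separate designs.

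In the Gq group, which acts on phospholipase C beta, Gna11 had 7.42 paired against 7.32 unpaired (log2 ratio 0.10) and 6.50 against 6.66 (-0.14). Gnaq, the Gq subunit used by mGluR1 in Purkinje cells, had 5.18 paired against 5.33 unpaired on design B (-0.15), and its dim probe sets had -0.14 and -0.07. Gna15 had 4.88 and 4.87 on design B. Only Gnaq, among these 3 genes, was lower in the paired pool on every probe set it had, and none reached 1.2-fold.

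G12 and G13 form a subfamily of their own among the alpha subunits. Gna13 had 6.15 paired against 6.39 unpaired on one probe set (log2 ratio -0.23) and 4.98 against 5.19 on the other (-0.19). Its gene mean of -0.21 was the lowest among the alpha subunit genes. Gna12 had 7.73 against 7.78 and 5.64 against 5.74, a mean of -0.06. All 4 kept probe sets of the pair were lower in the paired pool, each by less than 1.2-fold. They were read on the same arrays, those of design A. There 21 of 35 kept member probe sets were lower, and 3105 of all 6211 kept probe sets. Probe sets within 5 percentile points of their signals had an SD between 0.17 and 0.21. A difference of the subfamily was not tested.

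Gamma subunits tie the beta-gamma pair to the membrane and differ in tissue and lipid anchor. The brightest were Gng13, a gamma subunit of taste and retinal cells, with 8.33 in the paired and 8.42 in the unpaired pool at percentile 98.8, and Gng3, a neuronal gamma subunit, with 9.72 and 9.76 at 98.4. Gng7, abundant in striatum, had 6.54 and 6.62, and Gng10 had 6.63 and 6.66. Gng13, Gng3, Gng7 and Gng10 were nearly equal in the pools, with log2 ratios between -0.07 and -0.02. Bright probe sets of Gng11 (percentile 86.3) and Gng12 (80.7), given next, differed more.

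Gng11, which carries a farnesyl anchor, had 7.11 in the paired and 7.40 in the unpaired pool, a log2 ratio of -0.27 or 1.21-fold. Its other probe sets were dim, at percentile 41.3 of design C (log2 ratio -0.14) and, under the floor, at 1.40 of design A. Gng12 went both ways, with 5.28 paired against 4.96 unpaired (0.34) and 6.67 against 6.90 (-0.21) on design A and 4.80 against 5.13 (-0.32) on design B. Gng4 had 4.95 against 4.75 (0.21), and Gng2 4.84 against 4.74 (0.11). Gng8, known from olfactory neurons, had 4.40 and 4.42. Gng4 and Gng8 lay barely above the median signal, at percentiles 50.6 and 51.8.

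RGS proteins of the R4 group are small and act on Gi and Gq. Rgs8, typical of Purkinje cells, was the brightest, at percentile 97.3 on design C with 7.55 in the paired and 7.54 in the unpaired pool. Its other probe sets had 6.76 against 6.83 on A and 3.58 in both pools on C, the last at percentile 60.6. Only that last probe set has a name without a suffix. The log2 ratios of -0.05 on A and 0.01 on both probe sets of C were near 0. Purkinje cell markers, beside which Rgs8 is read, had a median log2 ratio of 0.095, and 10 of 14 were above 0. Summed over the kept probe sets of a design, those markers had a linear signal in the paired pool of between 1.00 and 1.15 times that in the unpaired pool. Such a sum is weighted to the brightest markers, which were Pvalb (highest percentile 100, log2 ratio -0.12) and Aldoc (99.7, 0.16). Rgs3 was nearly equal too, with 7.58 paired against 7.54 unpaired on A and 4.59 against 4.72 on B.

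Rgs4, a neuronal RGS protein whose transcript is quickly regulated, had 5.84 paired against 6.18 unpaired on design B (log2 ratio -0.33) but 5.44 against 5.34 on C (0.11) and 3.65 against 3.43 on a dim probe set of A. Rgs5, a marker of pericytes, had 5.71 paired against 5.48 unpaired on A (0.24) and 5.03 against 5.13 on B (-0.09). Both genes changed sign with the probe set. Rgs16 had 5.40 paired against 5.18 unpaired on its kept probe set (0.22, the highest gene value of all members), and its other one lay under the floor. Rgs2, an activity-regulated RGS protein that acts on Gq, was measured at 4.36 paired and 4.50 unpaired, under the design's median. Rgs13, known from B cells and mast cells, lay at percentile 2.25.

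R7 RGS proteins bind Gnb5 and also an anchor such as Rgs7bp. Rgs7 had 5.61 in the paired and 5.80 in the unpaired pool (log2 ratio -0.18), Rgs6 4.12 and 4.19 (-0.07), and Rgs11 6.01 and 6.06 (-0.04). Rgs9, the form of rods and striatum, had 5.17 and 5.15 on design C (0.03). With Gnb5 at -0.10, 4 of these 5 partners were lower in the paired pool, none by 1.2-fold. Of all measured member genes 73.7% were lower, and of all measured genes 51.0%. Rgs7bp, which is no member, had 10.01 paired against 9.95 unpaired on design B (0.06), at percentile 99.8, and 5.33 against 5.75 on design C (-0.41).

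The RZ protein Rgs17, which acts on Gz and Gi, had 6.47 paired against 6.79 unpaired on its brightest probe set, on design C (log2 ratio -0.31). On design B it had 5.33 against 5.28 and 4.27 against 4.40, which are 0.06 and -0.12. Its relative Rgs19 had 4 probe sets, all under the median. They had log2 ratios of 0.11, -0.40, -0.22 and near 0. Rgs12, which also holds a GoLoco motif that binds Gi, had 6.14 paired against 6.51 unpaired (-0.36), 5.36 against 5.52 (-0.15), 5.54 against 5.52 (0.02) and 5.36 against 5.12 (0.25), all on design B. On the same pair of arrays its probe sets thus lay on both sides of 0. Rgs10, abundant in microglia, had 5.82 against 5.93 and 5.24 against 5.18, and Rgs14, a relative with a GoLoco motif, 5.18 against 5.08.

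**Figure D4:**
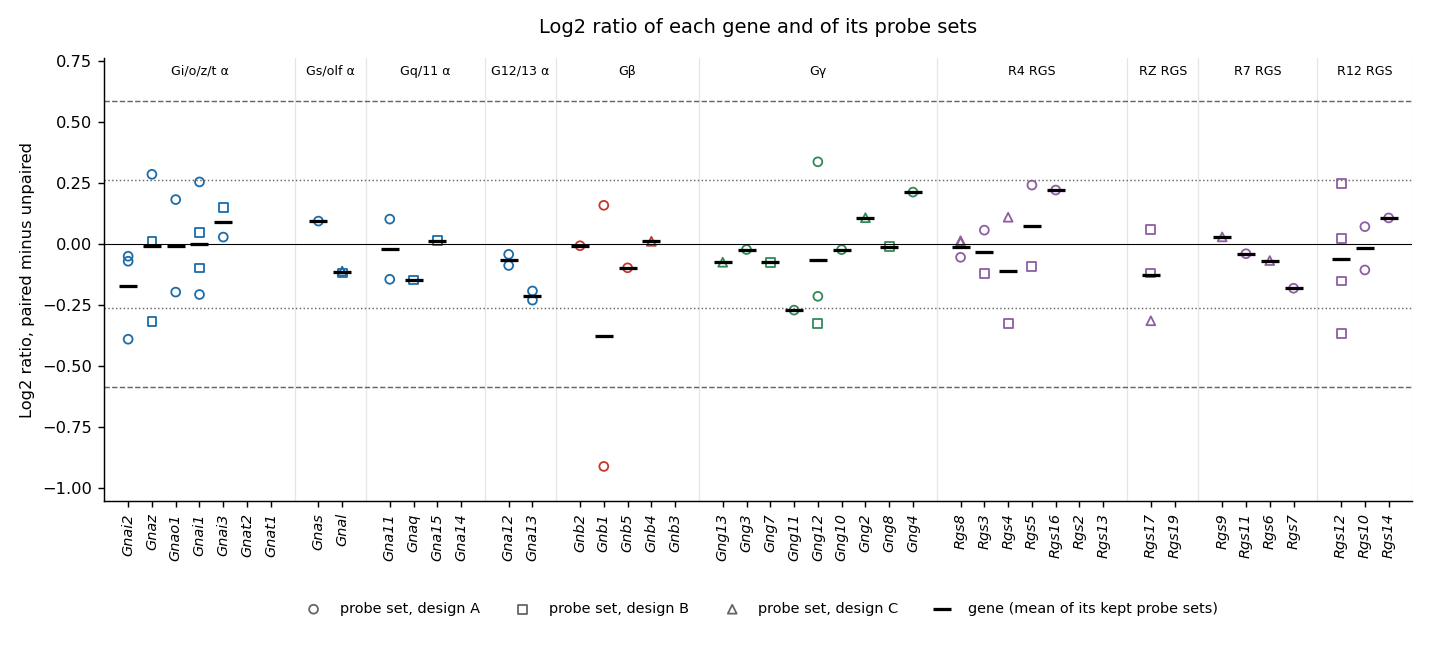
Log2 ratio, paired minus unpaired (y axis), of each kept member probe set (open symbols, by design) and of each gene (bars, the mean of its kept probe sets), by subfamily. Dashed and dotted lines mark 1.5-fold and 1.2-fold. Gnb1, Gnaz, Gng12, Rgs4 and Rgs12 have probe sets on both sides of 0.

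How well probe sets of 1 gene matched was described as well. They read the same training groups, often on the same arrays, so they are no replicates and say nothing of the spread between mice. Among 18 member genes with more than 1 kept probe set, 5 (27.8%) had no probe set on the opposite side of 0, namely Gna12, Gna13, Gnai2, Gnai3 and Gnal. Over all 3437 such genes the share was 42.1%. No member had all its kept probe sets one way and each past 1.2-fold, which 1.02% of all such genes had. The range between a gene's lowest and highest probe set had a median of 0.34 in members and 0.22 in all genes. Among genes with exactly 2 kept probe sets (11 members) the median range was 0.18 in both and the share on the same side 36.4% in members and 50.7% in all. With 3 the median range was 0.37 in 5 members and 0.31 in all, and with 4 it was 0.54 in 2 members and 0.39 in all.

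By gene, 28 of the 38 measured members were lower in the paired pool (73.7%), against 51.0% of all 10579 measured genes. The median log2 ratio was -0.023 over all 38 genes, -0.014 over 12 alpha, -0.052 over 4 beta, -0.023 over 9 gamma and -0.032 over 13 RGS genes, against -0.0039 over all genes. The 4 family medians lay under 0 with each of the scalings tried, but they are small beside the SD of 0.17 over all genes. That of the beta genes was 0.0023 without the Gnb1 probe set, and on design C alone those of the beta (1 gene), gamma (2) and RGS (5) genes were 0.011, 0.017 and 0.011. By probe set the share was 38 of 65 (58.5%), with 21 of 35 on design A, 13 of 20 on B and 4 of 10 on C, so it did not hold on design C. With the brightest probe set of each gene 60.5% of the 38 genes were lower. Past 1.2-fold as genes were Gnb1 and Gng11, 2 of 38 (5.26%), both lower, where 12.0% of all genes were that far apart. None was past 1.5-fold as a gene, against 0.388% of all.

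Other genes of the pathway were taken from lists. Receptor kinases and arrestins had 0 of 4 measured genes past 1.2-fold, with Arrb1 at a log2 ratio of -0.10 and Arrb2 at 0.06. Among 8 adenylyl cyclase genes 1 was higher and 1 lower. Adcy1, the calcium-activated form of cerebellar neurons, had 8.18 in the paired and 7.84 in the unpaired pool on design B and 5.80 and 5.22 on design C, a mean log2 ratio of 0.47. Adcy9, a widespread form, had 6.37 and 6.73, and 6.13 and 6.36, on design A, a mean of -0.28. Both held their direction over their 2 kept probe sets, as did 50.7% of all genes with exactly 2. They were named for the largest means of their list, which favours probe sets that go one way.

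Kcnj9 was the one GIRK channel gene of 4 with a kept probe set, and its 4 probe sets were all higher in the paired pool. They gave 7.59 paired against 7.20 unpaired and 5.52 against 5.33 on design A, 6.24 against 6.08 on B and 4.81 against 4.56 on C, for a mean log2 ratio of 0.26, just under 1.2-fold. Phospholipase C beta and IP3 receptor genes had 0 of 5 past 1.2-fold, with Plcb4, the form of Purkinje cells, at 0.24 and Plcb1 at 0.08.

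Of 15 other regulators 1 was higher and 2 lower, among them Pdcl, a chaperone of beta-gamma assembly, at 0.43, and Snx13, a sorting nexin with an RGS domain, at -0.58, each on 1 probe set. Of 26 metabotropic receptor genes 2 were higher and 2 lower, with F2r, a thrombin receptor, at 0.40 and Adra1b, an adrenergic receptor, at -0.38, each on 1 probe set. Past 1.2-fold were 5.36% of all genes as higher and 6.63% as lower.

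Among the cell type marker lists, those of granule and Purkinje cells had the medians farthest above 0. Granule cell markers had a median log2 ratio of 0.27, with 9 of 11 above 0 and 6 of them past 1.2-fold, led by Gabra6 at 0.89 and with Kcnd2 at -0.52. Their summed linear signal in the paired pool was between 1.04 and 1.27 times that in the unpaired pool over the designs. Purkinje cell markers had the median given above, with Kitl at -0.59 and Shisa6 at 0.48. Projection neuron markers had -0.040 over 8 genes, with Irx3 at -0.33 and Slc17a6 at 0.25. The Slc17a6 value rests on 1 probe set of design B at 0.85, as those on design C had -0.083 and -0.0025.

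Among glia and vessels, oligodendrocyte markers had a median of -0.084 with 11 of 13 genes lower. Among these were Sox10 at -0.27 and Gsn at -0.25. The brightest of 3 Sox10 probe sets, at percentile 97.7 of design B, had -0.015, and the others, on design A, had -0.53 and -0.27. Astrocyte markers had a median of -0.10 over 17 genes. Of these, 7 were higher, 3 past 1.2-fold, and 10 lower, 4 past 1.2-fold, with S100b at -0.33, Timp4 at -0.32 and, chosen after its value was seen, Atp1b2 at 0.31. Microglia markers had 0.042 over 7, with 4 above and 3 below 0, Cx3cr1 at 0.29 and C1qc at 0.16, and vascular markers 0.016 over 7, with Cldn5 at -0.37 and Ctla2a at 0.34. The summed linear signal in the paired pool was between 0.816 and 0.966 times that in the unpaired pool for oligodendrocyte markers over the designs, and between 0.822 and 1.11 times for astrocyte markers. How far the makeup of the pools bears on any member was not tested.

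**Figure D5:**
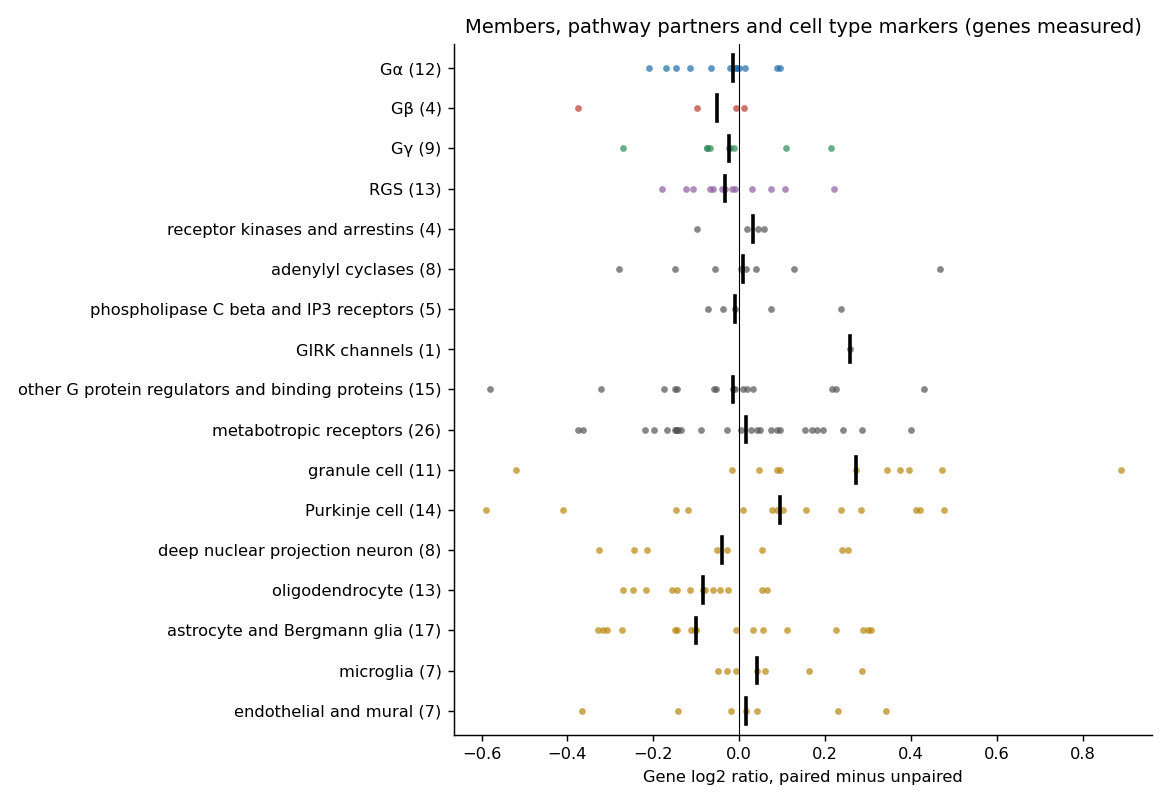
Gene log2 ratio, paired minus unpaired (x axis), of the measured members by family (top 4 rows), pathway lists (grey) and cell type marker lists (ochre), with the number of genes in brackets and the median as a black bar. Member medians lie between -0.052 and -0.014, and the granule cell markers have a median of 0.27.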

How the data were processed

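The files were 3 value tables, 1 per array design, with a paired and an unpaired column each. Values as deposited by the authors were taken to be log2 signals, a base inferred from their range of 1.40 to 12.5 without controls. How the authors summarised and normalised the scans is not given in the sources used here; cRNA (15 ug) was biotin-labelled per the labels' protocols. The letters A, B and C were read as designs, not replicates, because the tables hold different probe sets.

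Setting aside 198 control probe sets left 36701, of which 29131 had 1 gene symbol, 724 several and 6846 none. Symbols were updated through the gene identifier with the RefSeq table of GRCm38.p6, which matched 29044, all 103 members among them. Which transcript a probe set reads was not checked.

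For scaling, 1 constant per design was subtracted from the paired array, chosen to bring the median log2 ratio of probe sets brighter than the median to 0. Signals under the design's 25th percentile were set to it, and probe sets with a mean at or above the median were kept: 6211, 6206 and 5934 on A, B and C. No kept member probe set lay at the floor. Log2 ratios were averaged over a gene's kept probe sets. Signals are printed as deposited, log2 ratios after the shift.

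Named genes were every probe set past 1.5-fold, any gene whose kept probe sets all went one way past 1.2-fold (none did), the 3 genes with the largest absolute ratio and the brightest probe set of each subfamily, and the 2 genes with the largest ratio of each list. Other members were named to account for the family. One pathway list is not reported here. The members and lists were chosen with earlier results of these data known. Steps were tested on simulated data with Python 3.11.15, numpy 2.4.6, pandas 2.3.3 and statsmodels 0.14.6. Alternatives were other scalings (none, quantile, loess with span 0.3), floors and filters, single designs, the brightest probe set to stand for a gene, and no suffixed probe sets.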

Additional observations from a re-analysis of the deposited data

How the results depend on the processing

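No paired analysis was possible because each pool had 1 array per design and the labels give no replicate numbers. Under other scalings, floors and filters, 1 member probe set, that of Gnb1, stayed past 1.5-fold, with a log2 ratio between -0.92 and -0.86. The count was 0 on design B alone, on design C alone and without that probe set (an alternative added once the data had been seen). Past 1.2-fold were 5 probe sets on design A alone, 4 on B and 1 on C, as fewer were tested. The alpha subunit median was -0.072 on design B alone and -0.11 on C, where 1 alpha gene is left. The beta median was -0.19 with a signal filter at the 75th percentile with 2 genes left, 0.0023 without the Gnb1 probe set and 0.011 on design C alone. The RGS median was 0.020 on design A alone and -0.091 on B. The share of member genes lower in the paired pool, which was chosen after seeing the data, was 44.4% on design C alone and lay between 60.0% and 85.7% under the other alternatives. Over all genes that share was 51.1% on design C alone and lay between 42.1% and 54.5% under the other alternatives. Of 332 values of named members under alternatives, 18 turned sign. Many of the 332 could not differ, because the alternative left the kept probe sets of the gene as they were. The count is therefore no measure of how stable the values are. Only the Gnb1 probe set was past 1.5-fold in the reported analysis, and it kept its sign. With 1 array per pool, a difference between mice and one between arrays cannot be told apart.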
